A study of Homo sapiens with 26 samples.

Results

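The S100 genes encode small calcium-binding proteins, and 10 of them were followed here among the 26485 gene symbols of the expression tables: S100A2, S100A4, S100A7, S100A8, S100A9, S100A10, S100A11, S100A14, S100A16 and S100P. They were taken by symbol in all 5 tables, and each treated group was compared with the controls of its own table in 6 comparisons. Members of this family bind calcium through EF-hand motifs and mostly work as dimers that dock onto other proteins. S100A8 and S100A9 pair to form calprotectin, which is abundant in myeloid cells and in stressed squamous epithelium and signals through TLR4 and RAGE (gene AGER) once released. S100A10 and S100A11 bind annexins, S100A4 binds non-muscle myosin, and S100A2 is known as an epithelial gene and a target of p63.

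The RNA-seq libraries were made from KYSE180, TE6 and KYSE150, 3 established lines of human esophageal squamous cell carcinoma, with altered levels of BRDT or TP63. BRDT is a testis-specific bromodomain protein of the BET family, and TP63 encodes the squamous transcription factor p63. KYSE180 cells had 3 libraries with a control small interfering RNA (siCont) and 3 with an siRNA against BRDT (siBRDT). In a separate experiment with an siRNA against TP63 (siTP63), KYSE180 cells had 2 siCont and 2 siTP63 libraries. TE6 cells had 2 libraries each of siCont, siBRDT and siTP63 in 1 table, so both TE6 knockdowns share their siCont libraries. KYSE150 cells had 2 siCont and 2 siTP63 libraries and, in a further experiment, 3 control libraries and 3 with BRDT overexpression (BRDT-OE). Knockdown cells were collected 48 h after transfection. The medium held 10% serum for KYSE180 and TE6 and 5% for KYSE150. The labels do not say whether libraries of a group came from separate cultures, so p-values measure only the spread between these libraries.

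Values are the deposited normalised read counts, which are gene counts divided by a size factor set within each table. The libraries held 7582089 to 19372441 reads. BRDT fell under siBRDT by 2.75 on the log2 scale in KYSE180 and by 2.23 in TE6. In the KYSE150 overexpression experiment it had 6 to 17 reads in control libraries against 12475 to 18833 in BRDT-OE libraries. The KYSE150 siCont libraries had 41 and 7 BRDT reads. TP63 fell under siTP63 by 1.70 in KYSE180 and by 4.45 in TE6, and it also fell under siBRDT, by 0.58 in KYSE180 and by 1.15 in TE6. In KYSE150, TP63 was 695 and 729 under siCont and 170.4 and 114.5 under siTP63. This fall of 2.34 had an adjusted p of 0.082 (limma). All 6 squamous markers listed (TP63, KRT5, KRT14, KRT6A, DSG3 and TRIM29) had reads in every group, and their summed level was 478 to 8167 RPM (reads scaled to equal library totals). The 6 myeloid markers, listed because myeloid cells also make S100A8 and S100A9, summed to 0.097 to 8.82 RPM, with at least 1 marker at 0 reads in 8 of the 11 groups.

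On chromosome 1 lie 9 of the genes, and S100P is on chromosome 4. On hg38 (GENCODE release 44), S100A9 (chr1:153357854-153361023, plus strand) and S100A8 (chr1:153390032-153391073, minus strand) lie at one end of the cluster, with S100A12 between them. S100A7 (chr1:153457744-153460651), S100A4 (chr1:153543613-153550136), S100A2 (chr1:153561108-153567890), S100A16 (chr1:153606886-153613145) and S100A14 (chr1:153614255-153616986) follow on the minus strand. S100A10 (chr1:151982915-151993859) and S100A11 (chr1:152032506-152047907) lie outside the cluster on the minus strand, and S100P is at chr4:6693878-6697170 on the plus strand. Their main transcripts are short, from 408 bases for S100A8 to 1172 bases for S100A16, whereas the median longest transcript over all symbols with an annotation was 2848 bases. S100A4 overlaps S100A3 on the same strand and S100A11 overlaps a gene on the other strand, and the authors' counting of overlapping genes is not given in the sources used here, so reads of these pairs could be shared or lost.

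The promoters of the 4 members with the largest fold changes are shown (RefSeq, GRCh38.p14, 250 bases before and 50 bases from the start site). That of S100A2 differs in its core letters from those of S100A8, S100A9 and S100P. Capitals mark TATAAA or TGANTCA, the letters of a TATA box and of an AP-1 site, searched on both strands. The intervals are chr1:153565795-153566094 on the minus strand for S100A2, chr1:153391024-153391323 on the minus strand for S100A8, chr1:153357604-153357903 on the plus strand for S100A9 and chr4:6693628-6693927 on the plus strand for S100P.
S100A2: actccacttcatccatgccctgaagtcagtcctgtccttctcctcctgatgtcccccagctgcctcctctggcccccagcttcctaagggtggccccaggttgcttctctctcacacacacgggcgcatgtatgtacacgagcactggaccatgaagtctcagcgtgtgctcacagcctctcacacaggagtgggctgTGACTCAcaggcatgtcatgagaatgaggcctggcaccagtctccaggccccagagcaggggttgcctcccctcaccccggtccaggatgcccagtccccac
S100A8: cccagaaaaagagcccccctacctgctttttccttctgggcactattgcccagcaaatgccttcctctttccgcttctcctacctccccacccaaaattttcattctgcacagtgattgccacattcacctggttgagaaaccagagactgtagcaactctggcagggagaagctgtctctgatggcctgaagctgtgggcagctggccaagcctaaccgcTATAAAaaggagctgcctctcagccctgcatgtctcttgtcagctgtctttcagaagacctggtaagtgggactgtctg
S100A9: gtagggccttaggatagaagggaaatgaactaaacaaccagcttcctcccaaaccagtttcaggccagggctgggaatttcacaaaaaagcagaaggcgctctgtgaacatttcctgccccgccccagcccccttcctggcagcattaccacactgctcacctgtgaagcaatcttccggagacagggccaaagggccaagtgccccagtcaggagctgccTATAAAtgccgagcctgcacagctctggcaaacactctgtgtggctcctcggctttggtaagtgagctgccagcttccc
S100P: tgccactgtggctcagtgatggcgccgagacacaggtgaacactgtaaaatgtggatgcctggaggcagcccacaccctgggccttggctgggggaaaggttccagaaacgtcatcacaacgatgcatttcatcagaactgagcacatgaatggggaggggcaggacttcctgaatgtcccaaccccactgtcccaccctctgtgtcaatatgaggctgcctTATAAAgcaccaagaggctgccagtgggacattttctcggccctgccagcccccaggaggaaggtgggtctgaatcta
TATAAA was found in the promoters of 5 of the 10 genes, S100A4, S100A7, S100A8, S100A9 and S100P, starting 28 to 31 bases before the start site. Of 34796 different promoters of this length, 11.6% held these letters. The promoter of S100A2 alone among the 10 held TGANTCA, 52 bases before the start site, against 7.73% of all promoters. The p53-family half-site was found in S100A7 and S100A16, against 6.65% of all promoters. A match describes the letters and not a bound site.

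The 5 members without TATAAA in the promoter were the abundant ones in control cells of all 3 lines. Levels of different genes are compared as RPM per kb of the main transcript. In TE6 siCont cells S100A2 was the highest at 2436 ± 88.4 RPM per kb (SD, n = 2), followed by S100A14 at 1112 ± 15.1 and S100A11 at 918 ± 27.2. S100A16 (320 ± 8.4) and S100A10 (308 ± 3.8) came next, and every neighbour in this order was apart in both libraries. Below them were S100A9 at 54.0 ± 0.23, S100A4 at 32.5 ± 1.8, S100P at 6.95 ± 1.4 and S100A8 at 2.93 ± 0.64, and S100A7 had 0 reads.

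In KYSE180 siCont cells S100A14 was much lower than in TE6, at 67.9 ± 3.6 RPM per kb (n = 3) in the BRDT experiment and 98.8 ± 13.4 (n = 2) in the TP63 experiment. S100A2 was 887 ± 140 in the first experiment and 2993 ± 334 in the second, so siCont cells of the same line differed between experiments by more than the spread within them. RPM does not use the size factors of the tables. TP63 differed the other way, at 844 to 942 RPM in siCont cells of the first experiment and 149 to 183 RPM in the second. In KYSE150 siCont cells S100A10 (1295 ± 290), S100A2 (1145 ± 297) and S100A11 (1142 ± 61.1) could not be ordered, since neighbours in this order overlapped, as did S100A16 (593 ± 93.3) and S100A14 (437 ± 133). S100A9 and S100A4 were at 4.23 ± 1.27 and 2.87 ± 1.42 in these cells, with overlapping libraries. The same 5 genes had the higher levels in the other KYSE150 control group. Over the 11 groups, the lowest library of S100A2, S100A10, S100A11, S100A14 and S100A16 was above the highest library of the other 5 genes in 9 groups. The exceptions were KYSE180 siBRDT and KYSE180 siTP63, in which S100A4 reached or passed S100A14.

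**Figure D1:**
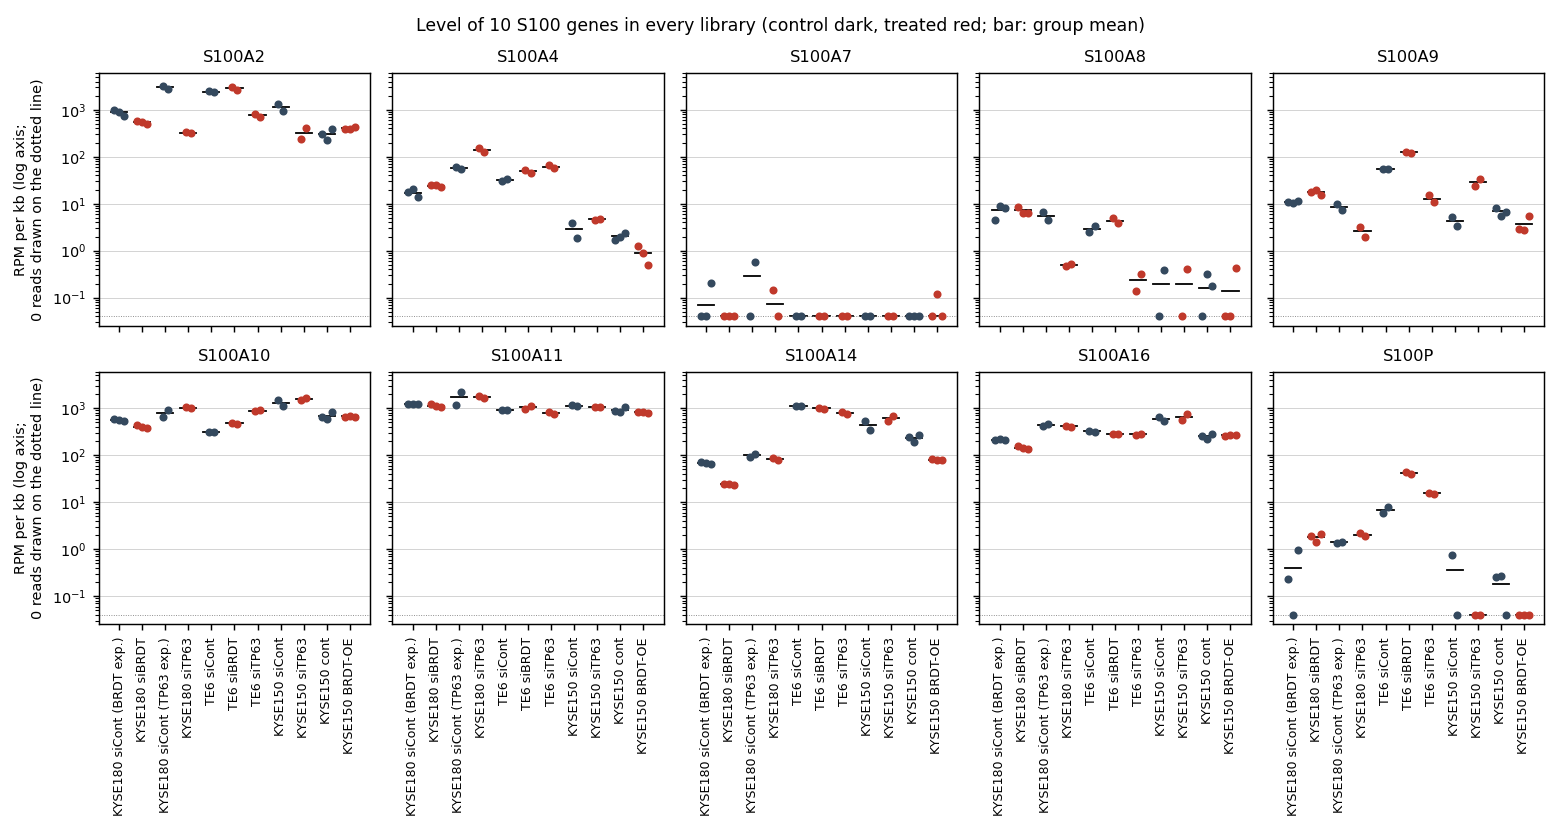
Level of the 10 S100 genes in every library as RPM per kb of the main transcript (log axis), by group; control libraries are dark, treated libraries red, bars are group means, and libraries with 0 reads sit on the dotted line. S100A2 falls under siTP63 in KYSE180 and TE6, S100P is highest in TE6 siBRDT cells, and S100A7 stays at 0 to 4 reads.

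Knockdown of BRDT gave 5 called members in KYSE180 and 4 in TE6, and S100A9 and S100A10 were called in both lines, S100A9 up in both and S100A10 in opposite directions. A gene counted as called when its adjusted p was under 0.05 (limma, Benjamini-Hochberg over all genes tested) and its fold change passed 0.5 in either direction on the log2(value + 1) scale. Groups that do not overlap were common with 2 or 3 libraries each. Over the 6 comparisons, all treated libraries were below control for 24.6% to 40.7% of genes tested. They were all above control for 24.3% to 39.8%. Between the TE6 knockdowns the shares were 33.2% and 35%. In KYSE180, 8 of the 10 members were tested, 4 were called down (15.8% of all 13589 genes tested were) and 1 was called up (14.5% of all genes). In TE6, 9 were tested, 0 were called down (18.1% of 13333 genes were) and 4 were called up (15.6% of all genes). No tested TE6 member was down at an unadjusted p under 0.05 either, nor with edgeR or DESeq2. Removal of the length and GC trend gave 2 members down (S100A14 and S100A16) and 2 up in TE6. The median log2 fold change of the tested members was -0.39 in KYSE180 and 0.64 in TE6, against -0.01 and -0.04 over all genes.

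Knockdown of TP63 lowered 5 and raised 1 of 9 tested members in KYSE180, where 25.7% of 13924 genes were called down and 23.6% up. In TE6 it lowered 3 and raised 3 of 9, where 20.6% of genes were called down and 18.3% up. In KYSE150, 0 of 7 tested members were called in either direction, as were 0% of 12335 genes, down or up, with limma. TP63 itself, at -2.34, was not called there (adjusted p 0.082, limma). The 0 calls therefore do not show that genes were unchanged. At an unadjusted p under 0.05, 2194 genes moved there, 2 of them members. edgeR called 0 genes and 0 members, and DESeq2 called 259 genes down and 202 up with 1 member each. BRDT-OE in KYSE150 lowered 3 and raised 1 of 7 tested members, where 16% of 12765 genes were called down and 10.5% up. DESeq2 called 2 members down there and 1 up. The members' medians were -0.63 for siTP63 in KYSE180, -0.21 in TE6, 0.20 in KYSE150 and -0.03 for BRDT-OE, against 0.0006, -0.01, -0.01 and 0.02 over all genes. In bulk RNA a lower level can mean fewer cells that make the RNA or less of it per cell, and these cannot be told apart.

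**Figure D2:**
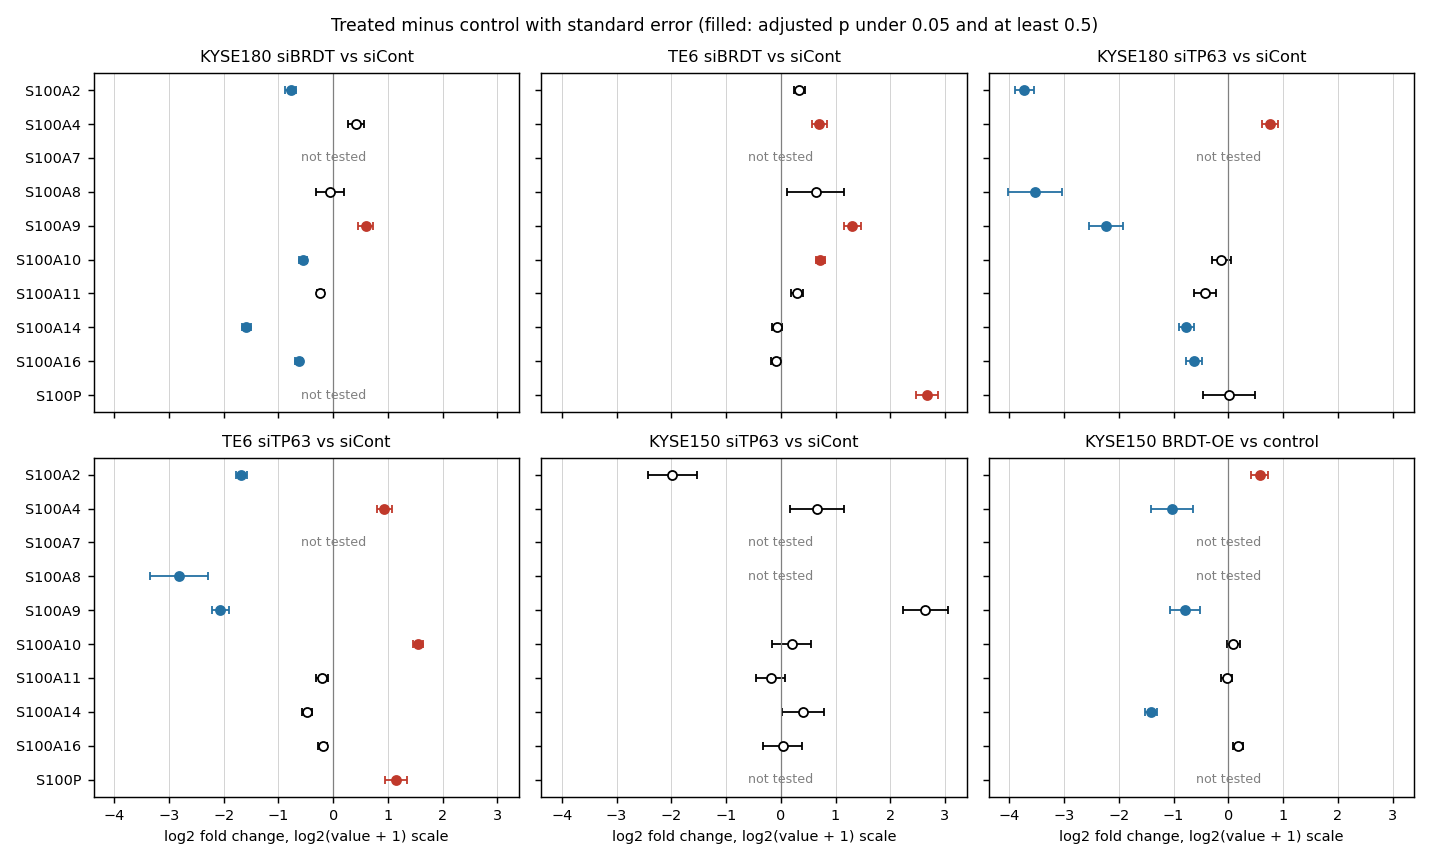
Log2 fold change of treated over control cells for each member on the log2(value + 1) scale with its standard error, in 6 comparisons; filled points passed an adjusted p under 0.05 and a log2 fold change of 0.5 in size, and members under a mean value of 10 were not tested. S100A2, S100A8 and S100A9 lie far to the left under siTP63 in KYSE180 and TE6, and S100P lies far to the right under siBRDT in TE6.

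S100A2, the epithelial member, fell under siTP63 in KYSE180 and TE6. In KYSE180 its fold change was the largest of any member on the log2(value + 1) scale, ahead of S100A8 at -3.53. This order depends on the scale, since over the alternatives S100A8 reached -4.01 there and S100A2 -3.73. In KYSE180 S100A2 was 54594 and 44618 in the siCont libraries and 3932 and 3527 in the siTP63 libraries. In TE6 it was 27621 and 26068 under siCont and 9026 and 7811 under siTP63, and in KYSE150 22743 and 13526 against 3056 and 6461. The knockdown libraries lay below the controls in all 3 lines, as they did for 40.4%, 40.7% and 24.6% of all genes tested. The log2 fold change was -3.73 ± 0.17 (SE, adjusted p 6.5e-15, limma) in KYSE180, which is 0.0755 of the control level. It was -1.68 ± 0.10 (adjusted p 1.4e-07, limma) in TE6. In KYSE150 the value was -1.98 ± 0.45 with an adjusted p of 0.14 (limma). It was -2.52 to -1.44 with 1 library left out, a fit that leaves 1 library in a group. The fall in TE6 was smaller than in KYSE180 by 2.05 ± 0.38 (adjusted p 2.3e-04 for the difference, limma). TP63 itself fell further in TE6 than in KYSE180, with a difference of -2.74 ± 0.21 (adjusted p 4.5e-08, limma). Of the 6 squamous markers, TP63 included, 5 also fell in KYSE180 and 6 in TE6, and their summed level went from 7048 to 7275 RPM down to 4362 to 4388 RPM in KYSE180 and from 5262 to 5296 RPM down to 803 to 862 RPM in TE6. Their part in the fall of S100A2 was not tested.

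Under siBRDT, S100A2 was 6016, 5650 and 5109 in KYSE180 against 10998, 10005 and 7892 under siCont, and the groups did not overlap. It fell by 0.77 ± 0.10 (adjusted p 1.0e-05, limma). In TE6 it was 36146 and 31942 against 27621 and 26068, which gave 0.34 ± 0.10 and was under the fold limit. When transcript length and GC content were regressed out of each TE6 library, this value was -0.20. The effects of siBRDT in the 2 lines differed by 1.11 ± 0.35 (adjusted p 0.027, limma). This difference was lost without any one of 6 of the 10 libraries, at 1.01 to 1.16. In BRDT-OE cells S100A2 was 6275, 6383 and 6820 against 4385, 3311 and 5739 in controls, a rise of 0.57 ± 0.16 (adjusted p 0.011, limma). The value was 0.37 without control replicate 2, under the fold limit, and the adjusted p was 0.050 without BRDT-OE replicate 3.

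S100A8 and S100A9, the subunits of calprotectin, fell together under siTP63 in KYSE180 and TE6. S100A9 was 99.1 and 69.8 in KYSE180 siCont cells and 22.2 and 12.7 under siTP63. In TE6 it was 349.0 and 348.9 under siCont and 98.9 and 69.5 under siTP63. Both groups were apart in each line, with log2 fold changes of -2.24 ± 0.31 (adjusted p 1.2e-06, limma) and -2.06 ± 0.16 (adjusted p 1.0e-06, limma). S100A8 rested on few reads: 30 and 29 reads in KYSE180 siCont against 3 and 3 under siTP63, and 13 and 18 in TE6 siCont against 1 and 1. Its RPM was 10.9-fold lower in KYSE180 (exact 95% counting interval 4.74 to 31.0) and 14.9-fold lower in TE6 (3.79 to 128). The limma log2 fold changes were -3.53 ± 0.50 (adjusted p 1.4e-06) and -2.82 ± 0.52 (adjusted p 7.0e-04). Intervals of reads cover counting error only.

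KYSE150 cells went the other way for S100A9. It had 34 and 24 reads under siCont and 226 and 233 under siTP63, values of 50.5 and 28.3 against 187.8 and 310.1. The groups were far apart, at a log2 fold change of 2.64 ± 0.40, but the adjusted p was 0.11 (limma), in a comparison with 0 called genes. Leaving out any one of the 4 libraries gave 2.235 to 3.05, but such a fit leaves 1 library in a group and cannot show its spread. The effect of siTP63 on S100A9 was higher in KYSE150 than in KYSE180 by 4.88 ± 0.47 (adjusted p 7.0e-07, limma) and than in TE6 by 4.70 ± 0.47 (adjusted p 7.5e-07, limma). S100A8 had 0 to 2 reads in every KYSE150 library and was not tested within that line. Myeloid markers summed to 0.875 to 1.56 RPM in KYSE150 siCont cells and, without overlap, to 2.04 to 2.27 RPM under siTP63. MPO and LYZ were at 0 reads in both groups, and the 2 tested markers had a median log2 fold change of 0.61 and were not called (CSF1R at 1.15, adjusted p 0.31, and CD14 at 0.08, adjusted p 0.97, limma). Their part in the S100A9 values was not tested.

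Under siBRDT, S100A9 rose in both lines. In KYSE180 it was 105.4, 118.1 and 92.3 against 68.6, 65.8 and 73.6 under siCont, and in TE6 868.5 and 864.9 against 349.0 and 348.9. The log2 fold change was 0.59 ± 0.14 (adjusted p 0.0020, limma) in KYSE180 and 1.31 ± 0.16 (adjusted p 5.5e-05, limma) in TE6. The KYSE180 value was 0.43, under the fold limit, once the length and GC trend was removed, and the TE6 value was then 0.71. S100A8 was not called, at -0.05 ± 0.26 (adjusted p 0.88, limma) in KYSE180 and 0.64 ± 0.52 (adjusted p 0.34, limma) in TE6. In BRDT-OE cells S100A9 was 26.7, 26.2 and 52.0 against 70.5, 47.2 and 59.2, and the groups overlapped. Its fall of 0.79 ± 0.28 (adjusted p 0.035, limma) was lost without control replicate 1, BRDT-OE replicate 1 or BRDT-OE replicate 2, at -0.66, -0.64 and -0.63. Myeloid markers summed to 3.90 to 5.87 RPM in these controls and 2.12 to 2.81 RPM in BRDT-OE cells, with 1 of 2 tested, ITGAM, called down at -3.04 (adjusted p 9.4e-04, limma) and PTPRC, MPO and LYZ at 0 reads in both groups. Their part in this fall was not tested.

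S100A4, the myosin-binding member, was called up in 3 of the 4 knockdowns in KYSE180 and TE6. In KYSE180 it was 531.6 and 457.9 under siCont and 954.8 and 734.9 under siTP63, at 0.76 ± 0.15 (adjusted p 1.6e-04, limma). In TE6 it was 181.1 and 194.7 under siCont, 323.7 and 291.5 under siBRDT and 384.2 and 335.9 under siTP63. Each knockdown group was above its controls, at 0.71 ± 0.14 for siBRDT (adjusted p 0.0014, limma) and 0.93 ± 0.14 for siTP63 (adjusted p 1.5e-04, limma). With the length and GC trend removed, the siBRDT value in TE6 was 0.12 and was no longer called. In KYSE180, siBRDT gave 136.2, 133.1 and 120.1 against 100.5, 115.7 and 78.5, a value of 0.42 ± 0.14 under the fold limit, which was passed without siCont replicate 2 (0.54) and with libraries scaled to equal totals (0.5015). In KYSE150 cells the gene had 3 to 38 reads per library. BRDT-OE libraries were at 10.3, 7.6 and 4.2 against 12.6, 15.1 and 18.6, and the fall of 1.03 ± 0.38 (adjusted p 0.041, limma) was lost without any one of 4 of the 6 libraries. It was also lost with DESeq2 (adjusted p 0.11). With limma it was lost without a filter on low values (adjusted p 0.065), with a replicate block (0.051) and with the length and GC trend removed (0.056). Without BRDT-OE replicate 3 the value was -0.72, and without control replicate 3 the gene was under the limit for testing. The fibroblast markers were listed because fibroblasts also make S100A4. They summed to 33.0 to 35.7 RPM in KYSE180 siCont cells of the TP63 experiment and to 64.5 to 74.6 RPM under siTP63. Scaling to equal totals, which RPM uses, moved the median log2 fold change of all genes there by 0.526. On the deposited values the 1 marker tested there was at 0.49 and was not called. In TE6 the fibroblast markers summed to 24.5 to 27.3 RPM under siCont and 21.9 to 27.4 RPM under the knockdowns. In KYSE150 they went from 9.38 to 10.4 RPM in controls to 4.40 to 5.29 RPM in BRDT-OE cells, with the 1 tested marker, COL1A1, called down at -0.90 (adjusted p 3.0e-04, limma). Their part in these results was not tested.

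The annexin partners S100A10 and S100A11 were abundant in every library, and of the pair only S100A10 was called against controls. S100A10 was 2361 and 2306 in TE6 siCont cells, 3811 and 3891 under siBRDT and 6832 and 6790 under siTP63. Both TE6 knockdowns were above control and apart from each other, at 0.72 ± 0.09 (adjusted p 4.7e-05, limma) and 1.55 ± 0.09 (adjusted p 8.3e-08, limma). The siTP63 libraries exceeded the siBRDT libraries by 0.82 ± 0.09 (adjusted p 1.9e-05, limma). With the length and GC trend removed the values were 0.24 and 1.33, and the first was then not called. In KYSE180 cells S100A10 fell under siBRDT from 4339, 4188 and 3953 to 3085, 2861 and 2597, by 0.55 ± 0.07 (adjusted p 9.4e-06, limma), and the groups did not overlap. This value was -0.46, under the fold limit, with libraries scaled to equal totals, and -0.48 without siBRDT replicate 3. Under siTP63 in KYSE180 it was 8402.5 and 7959.5 against 7649.1 and 10394.2, which overlapped, at -0.12 ± 0.17. The effects in TE6 and KYSE180 differed by 1.27 ± 0.24 for siBRDT (adjusted p 0.0013, limma) and by 1.67 ± 0.27 for siTP63 (adjusted p 6.3e-05, limma).

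S100A11 ranged from 4713 to 20722 over the 26 libraries and had log2 fold changes between -0.43 and 0.30. None of its 6 values passed both thresholds. In KYSE180 under siBRDT the value was -0.23 ± 0.07 (adjusted p 0.0077, limma), and in TE6 it was 0.30 ± 0.11 (adjusted p 0.043, limma), both under the fold limit. KYSE180 siCont libraries of the TP63 experiment differed widely, at 11589 and 20722. The siTP63 value was -0.845 without the first of them and -0.0067 without the second, each with 1 siCont library left. S100A10 and S100A11 under siTP63 in KYSE180 changed sign with the scaling: with libraries scaled to equal totals they were 0.40 and 0.10, and with the length and GC trend removed 0.52 and 0.30.

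S100A14 and S100A16, neighbouring epithelial genes at the far end of the cluster, fell in KYSE180. S100A14 was 842.8, 793.8 and 749.3 under siCont and 270.4, 264.0 and 257.7 under siBRDT, a fall of 1.59 ± 0.08 (adjusted p 5.6e-10, limma) to 0.333 of control. S100A16 was 2694, 2826 and 2653 against 1909, 1733 and 1651, a fall of 0.63 ± 0.07 (adjusted p 1.5e-06, limma). Neither gene's groups overlapped. In TE6 siBRDT libraries they were close to control, at -0.06 ± 0.09 for S100A14 (adjusted p 0.60, limma) and -0.09 ± 0.09 for S100A16 (adjusted p 0.43, limma). The difference between the lines was 1.52 ± 0.26 for S100A14 (adjusted p 5.0e-04, limma) and 0.54 ± 0.22 for S100A16, which missed the threshold (adjusted p 0.077, limma). With the length and GC trend removed, TE6 siBRDT values were -0.56 and -0.65 and both genes were then called down.

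S100A14 also fell in BRDT-OE cells, where BRDT was raised rather than lowered. It was 1415, 1363 and 1371 against 3844, 3027 and 4245 in controls, with no overlap. The fall was 1.41 ± 0.11 (adjusted p 8.3e-06, limma), to 0.377 of control. S100A16 was 4977, 5064 and 5097 against 4376, 3918 and 5104, at 0.18 ± 0.09 (adjusted p 0.12, limma), and the groups overlapped. Under siTP63 in KYSE180, S100A14 fell by 0.77 ± 0.14 (adjusted p 6.0e-05, limma) and S100A16 by 0.63 ± 0.15 (adjusted p 0.0011, limma). Both calls were lost with the length and GC trend removed, at -0.27 and -0.09, and with libraries scaled to equal totals, at -0.24 and -0.10. In TE6 siTP63 cells S100A14 was 10047.1 and 8950.5 against 13391.2 and 13050.4, and the value of -0.48 ± 0.09 (adjusted p 7.8e-04, limma) was just under the fold limit. It was called without siTP63 replicate 1, at -0.56. With the length and GC trend removed, S100A14 was at -0.80 and S100A16 at -0.56 in TE6 siTP63 cells, and both were called down.

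S100P, a ligand of RAGE that lies apart from the cluster, had the largest rise among called members. In TE6 it was 31.6 and 42.2 under siCont, 243.8 and 234.1 under siBRDT and 84.9 and 79.9 under siTP63. The 3 groups were apart from each other. The rise was 2.68 ± 0.20 under siBRDT (adjusted p 1.9e-06, limma) and 1.15 ± 0.20 under siTP63 (adjusted p 4.5e-04, limma). The siTP63 libraries were below the siBRDT libraries by 1.52 ± 0.20 (adjusted p 9.7e-05, limma). In KYSE180, S100P had 1, 0 and 5 reads under siCont and 9, 6 and 12 under siBRDT, and its mean value was under the limit for testing. The RPM ratio was 5.12 (exact 95% counting interval 2.07 to 15.2). It had 7 and 11 reads against 16 and 13 under siTP63 in KYSE180, at 0.01 ± 0.47 (adjusted p 0.98, limma), and 0 to 4 reads in KYSE150 libraries.

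S100A7 (psoriasin), a gene of inflamed and differentiating epidermis, was barely detected. It had 7 reads in all, spread over 4 of the 26 libraries, with 4 reads in 1 KYSE180 siCont library at most. A library at 0 reads allows up to 3 reads, which equals 0.155 to 0.396 RPM at these depths. Of the copies of the gene, S100A7A had 0 reads in every group but KYSE180 siBRDT and TE6 siBRDT. S100A7L2 had 0 reads in every group but TE6 siBRDT. Reads on silent genes in TE6 siBRDT were not limited to these copies. Of the 7 S100 fused-type genes, 0 were at 0 reads there, against 5 in each of TE6 siCont and TE6 siTP63. The 2 TE6 siBRDT libraries also agreed least of any pair within a group (r 0.9752 on log2 values). No reads were counted on S100A7A or S100A7L2 outside the siBRDT groups named, and no difference was detectable at this depth.

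Direct comparison of the TE6 knockdowns, without the shared controls, gave 5 members lower and 1 higher under siTP63 than under siBRDT, against 14.3% and 14.1% of all genes. S100A2 was lower by 2.02 ± 0.10 (adjusted p 4.7e-08, limma), S100A8 by 3.46 ± 0.52 (adjusted p 2.7e-04, limma) and S100A9 by 3.37 ± 0.16 (adjusted p 4.4e-08, limma). S100P and S100A10 are given above. S100A11 was lower by 0.50 ± 0.11 (adjusted p 0.0031, limma), a call lost without siBRDT replicate 2 (-0.36) or siTP63 replicate 2 (-0.41), with libraries scaled to equal totals (-0.41) and with the length and GC trend removed (-0.21). TE6 siTP63 replicate 2 was the library of 7582089 reads.

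Between the lines, 0 members differed downward and 3 upward for siBRDT in TE6 minus KYSE180, where 12.6% and 10.2% of 13931 genes did at an adjusted p under 0.05 (limma, no fold limit). For siTP63, TE6 minus KYSE180 gave 0 and 2 (23.7% and 25.7% of genes), KYSE150 minus KYSE180 gave 0 and 5 (11.5% and 17.6%) and KYSE150 minus TE6 gave 1 and 3 (10% and 11.9%). S100A8, at 0 to 2 reads in every KYSE150 library, is among the upward counts of both KYSE150 contrasts and there reflects its level in the other line. In the contrasts with 0 downward calls, 0 members were lower at an unadjusted p under 0.05, and 0 with edgeR or DESeq2. Once the length and GC trend was removed, 3 members differed downward for siTP63 in TE6 minus KYSE180.

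**Figure D3:**
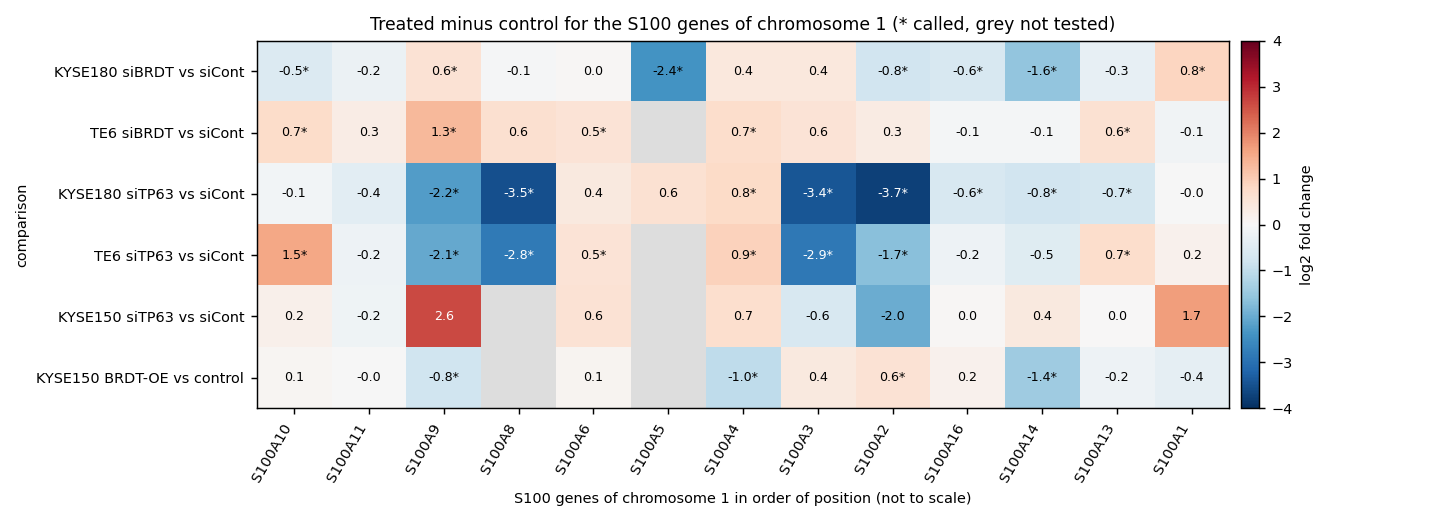
Log2 fold change (colour and number) of the S100 genes of chromosome 1 in order of position, in 6 comparisons of treated with control cells; asterisks mark called genes and grey marks genes not tested. Neighbours differ in direction: S100A3 and S100A2 are at -3.4 and -3.7 under siTP63 in KYSE180, while S100A4 beside them is at 0.8.

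The neighbours of S100A2 differed in direction under siTP63. S100A3, which shares bases with S100A4, was lower under siTP63 in KYSE180 (71.8 to 5.85 on average, log2 fold change -3.41, adjusted p 1.6e-08, limma) and in TE6 (15.2 to 1.99, -2.86, adjusted p 0.0036, limma). S100A4 rose in both. Of 11 other S100 genes in the tables, 5 were tested in KYSE180 and 4 in TE6 and KYSE150. Under siTP63, 2 fell and 0 rose in KYSE180 (25.7% and 23.6% of all genes did), and 1 fell and 2 rose in TE6 (20.6% and 18.3%). In TE6 S100A13 rose by 0.71 (adjusted p 1.8e-04, limma) while it fell by 0.69 in KYSE180 (adjusted p 3.7e-04, limma). Under siBRDT, 1 fell and 1 rose in KYSE180, S100A5 by -2.39 (adjusted p 4.2e-04, limma) and S100A1 by 0.85 (adjusted p 0.013, limma). In TE6, S100A13 and S100A6 rose by 0.60 and 0.54. Under siTP63 in KYSE150 and in BRDT-OE cells 0 of 4 were called with limma.

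Of the 10 genes listed beside the cluster, 2 of 7 tested fell and 1 rose under siTP63 in KYSE180 (25.7% and 23.6% of all genes did), with ILF2 at -0.92 (adjusted p 2.0e-05, limma) and GATAD2B at 0.78 (adjusted p 1.0e-04, limma). Under siBRDT in KYSE180, 1 fell and 1 rose, SLC27A3 at -0.59 and INTS3 at 0.55. In the TE6 and KYSE150 comparisons 0 of 6 were called with limma. The S100 fused-type genes, large epidermal proteins with an S100 domain, were mostly under the limit for testing, and filaggrin (FLG) was the one tested in every comparison. Hornerin (HRNR) rose under siBRDT in KYSE180 by 2.35 (adjusted p 6.7e-05, limma). FLG fell under siBRDT in TE6 by 1.12 (adjusted p 9.9e-04, limma) and under siTP63 in KYSE180 by 1.16 (adjusted p 0.020, limma), and it rose in BRDT-OE cells by 2.16 (adjusted p 1.1e-04, limma).

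Of 11 S100 partners and receptors, 10 were tested. Under siBRDT 0 were called in KYSE180, and 2 fell and 2 rose in TE6 (18.1% and 15.6% of all genes did), with AHNAK, the S100A10 partner, at -0.83 (adjusted p 9.9e-05, limma) and non-muscle myosin MYH9 at -0.76 (adjusted p 0.0020, limma). Under siTP63, 2 fell and 3 rose in KYSE180, with CACYBP at -1.18 (adjusted p 9.9e-08, limma) and AHNAK at 0.81 (adjusted p 7.6e-05, limma). In TE6, 0 fell and 3 rose, with ANXA11 at 1.17 (adjusted p 7.7e-06, limma) and AGER at 0.54 (adjusted p 0.017, limma). In BRDT-OE cells 1 fell and 2 rose, AGER at -0.80 (adjusted p 0.0015, limma) and MYH9 at 1.06 (adjusted p 4.1e-05, limma) among them. Of the 15 suprabasal differentiation genes, 3 of 8 tested rose and 1 fell under siBRDT in KYSE180, and 3 of 7 rose in TE6, where KRT4 was at 1.495 (adjusted p 2.2e-05, limma). Under siTP63, 3 fell and 2 rose of 9 in KYSE180 (25.7% and 23.6% of all genes did) and 3 fell and 3 rose of 7 in TE6 (20.6% and 18.3%). KRT4 rose by 2.0004 and 2.8951 and KRT13 fell by 1.44 and 1.67 in the 2 lines. In BRDT-OE cells 1 of 5 fell, CSTA by 1.02, and in KYSE150 siTP63 cells 0 of 5 were called with limma.

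Interferon-response genes moved in several of the same comparisons as S100A4, S100A9 and S100P. Of 14 listed, 13 of 13 tested rose in TE6 siBRDT cells (15.6% of all genes did), at a median log2 fold change of 2.48. In TE6 siTP63 cells 10 of 13 rose (18.3% of all genes did), at 1.84. In KYSE180, 14 of 14 rose under siTP63 (median 3.32, against 23.6% of all genes called up). Under siBRDT there, 3 of 13 rose and 1 fell (median 0.07, against 14.5% and 15.8% of all genes). In BRDT-OE cells 10 of 12 fell (median -1.95, against 16% of all genes). In KYSE150 siTP63 cells 0 of 10 were called (median 1.23), as were 0% of all genes. S100A4 was called up in KYSE180 siTP63 and in both TE6 knockdowns and down in BRDT-OE cells, with the limits given above. S100A9 rose in TE6 siBRDT cells and fell in TE6 siTP63 cells, while the interferon list rose in both. In KYSE180 siTP63 cells, where that list also rose, S100A9 fell and S100P was at 0.01. The part of the interferon response in the S100 results was not tested.

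**Figure D4:**
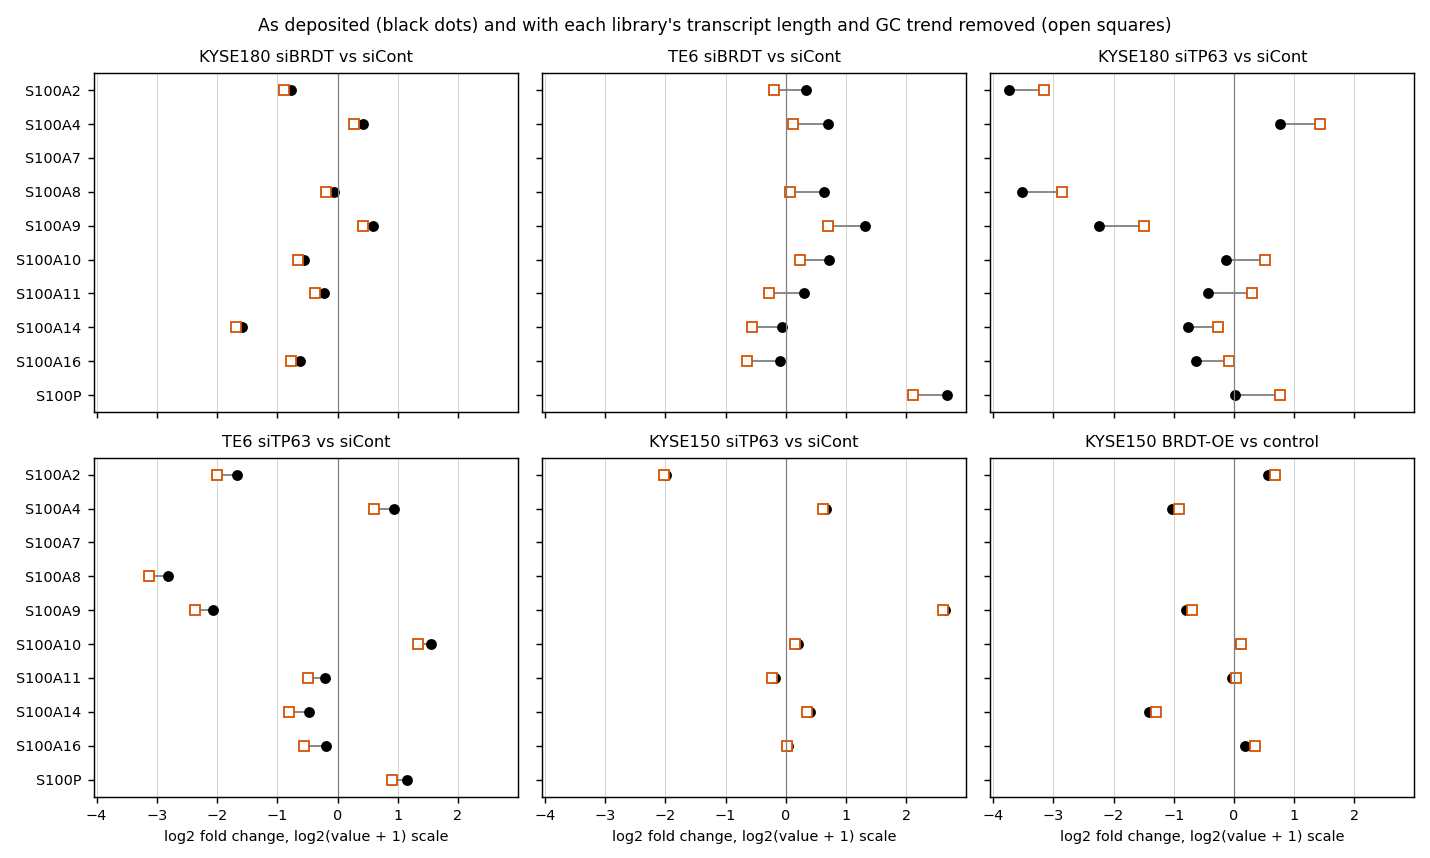
Log2 fold change of each tested member as deposited (black dots) and with transcript length and GC content regressed out of every library (open squares), in 6 comparisons. In TE6 siBRDT cells every tested member shifts to the left, so that S100A2 and S100A11 change sign, and in KYSE180 siTP63 cells every tested member shifts to the right.

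The fold changes of the family depended on how transcript length and GC content were treated. Regressing both out of every library lowered the TE6 siBRDT values of all 9 tested members and raised the KYSE180 siTP63 values of all 9. The largest changes kept their calls under it. S100P was 2.12 under siBRDT in TE6, S100A2 was -3.15 under siTP63 in KYSE180 and -1.999 in TE6, and S100A14 was -1.69 under siBRDT in KYSE180 and -1.30 in BRDT-OE cells. S100A8 was -2.86 and -3.13 and S100A9 -1.50 and -2.37 under siTP63 in KYSE180 and TE6.

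The likeness of expression patterns was measured as Pearson's r over the 26 libraries on log2 values centred within each table, among 10454 genes with a mean value of at least 100. The libraries share tables and treatments, so r is given as a description. The nearest genes to S100A2 were H2AFV and CCT7 (r 0.98 each) and CCT4 (0.98), and to S100A8 NAT8L (0.89), FAM216A (0.83) and GCNT1 (0.83). S100A4 was nearest to IER2 (0.85), IFITM3 (0.85) and SLC16A5 (0.84), and S100P to CALB2 (0.74), TMEM180 (0.73) and C20orf96 (0.72). Among the members, S100A2 and S100A8 were each other's nearest (0.72), S100A9 was nearest to S100A8 (0.70), S100A14 to S100A16 (0.62) and S100A16, S100A11 to S100A2 (0.67 and 0.64). S100A4 and S100A10 were each other's nearest at 0.36, S100P was nearest to S100A4 at 0.35, and S100A7, with its 7 reads, was nearest to S100A11 at 0.61.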

How the data were processed

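The 26 libraries, 11 groups and 5 tables are those of the labels, and each column was assigned by cell line, condition and replicate number. Per the labels and the study's methods, the authors prepared libraries with an Illumina TruSeq kit, mapped reads to hg38 with STAR 2.6.0, counted them per gene with HTSeq 0.11.2 and normalised with DESeq2 1.24.0. The gene annotation and strand setting are not given in the sources used here. What the authors deposited is therefore a normalised signal: each count over its library's size factor, with factors estimated table by table. All values were whole multiples of 1 read within a tolerance of 0.01 (100% of values), and reads, RPM and depth (7582089 to 19372441 reads, 0 reads allowing up to 3) were recovered from them. Reads carry no molecular identifiers, so floors and intervals cover counting error only.

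The main test was limma 3.58.1 (R 4.3.3), lmFit and eBayes with trend, on log2(value + 1), which understates changes of low genes. Genes with a mean value under 10 in a fit were left out. Each table was fitted alone, with the 3 TE6 groups in 1 fit. Effects were compared between lines in 1 fit of all libraries, which shares 1 spread per gene. Members and gene lists were chosen with earlier results of these data known. Named genes are all 10 members, BRDT, TP63, at most the 2 called genes of largest change per list and comparison, the 3 nearest genes of S100A2, S100A4, S100A8 and S100P, and each member's nearest member. The cluster's S100A3, S100A13 and S100A6 were named with their list. Replicate numbers did not pair the libraries, and no block was used. Alternatives were a pseudocount of 0.1, no filter, equal upper quartiles, a replicate block, count tests on the reads (edgeR 4.0.16, DESeq2 1.42.0), no fold limit, removal of the length and GC trend (splines with 4 degrees of freedom, 24542 symbols, 92.7%), 2-group TE6 fits and leaving out each library. Scaling to equal totals and a crossed pairing were chosen after seeing the data. The fits were tested on simulated reads with 1 fixed spread and independent libraries. That is unlike the KYSE150 siTP63 experiment, so the simulation does not cover it. Python 3.11.15 and matplotlib 3.10.9 drew the figures.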

Additional observations from a re-analysis of the deposited data

Results flagged for a closer look

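Effects of the same knockdown differed between cell lines by a test of the difference itself (limma on all 26 libraries, adjusted over 13931 genes) for 14 pairs of member and contrast, all as log2 differences of effects. For siBRDT, TE6 minus KYSE180 gave 1.115 for S100A2 (adjusted p 0.027), 1.272 for S100A10 (0.0013) and 1.523 for S100A14 (5.0e-04). For siTP63, TE6 minus KYSE180 gave 2.052 for S100A2 (2.3e-04) and 1.67 for S100A10 (6.3e-05).

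For siTP63, KYSE150 minus KYSE180 gave 1.747 for S100A2 (adjusted p 0.0023), 3.589 for S100A8 (0.0084), 4.88 for S100A9 (7.0e-07), 1.168 for S100A14 (0.0045) and 0.663 for S100A16 (0.041). KYSE150 minus TE6 gave 2.881 for S100A8 (adjusted p 0.036), 4.702 for S100A9 (7.5e-07), -1.344 for S100A10 (0.0014) and 0.8813 for S100A14 (0.031). Both S100A8 differences set KYSE150 libraries of 0 to 2 reads, too few to show a change, against falls in the other line, so they describe the other line only, and edgeR and DESeq2 called neither. The S100A16 difference was 0.07116 with the length and GC trend removed and 0.2422 with equal library totals, neither past the threshold. It was also lost without a filter, with equal upper quartiles, with the replicate block, with edgeR or DESeq2, and without any one of 6 libraries, at 0.32 to 0.74. The S100A14 difference between KYSE150 and TE6 was lost without any one of 6 libraries, at 0.46 to 0.96. The tables were normalised separately, so line and table cannot be told apart. This fit shares 1 spread per gene over all 26 libraries. In the KYSE150 contrasts the SE was 0.38 for S100A2, 0.27 for S100A10, 0.28 for S100A14 and 0.24 for S100A16. Within KYSE150 alone it was 0.45, 0.35, 0.39 and 0.35, so the adjusted p of these genes understates the KYSE150 spread. For S100A9 the SE was 0.47 against 0.40 within KYSE150.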

How the results depend on the processing

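Of 1003 values of members and contrasts under all alternatives, 870 (86.7%) kept direction and side of the threshold. The share was lowest with the length and GC trend removed, at 50 of 69 values. With that trend removed, with or without the replicate block, members called were 0 up in KYSE180 siBRDT cells, 2 down and 2 up in TE6 siBRDT cells, 3 down and 2 up in KYSE180 siTP63 cells, 5 down in TE6 siTP63 cells and 1 down and 1 up in KYSE150 siTP63 cells, and 3 differed downward for siTP63 between TE6 and KYSE180. Values that then changed sign were S100A2 (-0.1997) and S100A11 (-0.2787) in TE6 siBRDT cells, S100A10 (0.5171) and S100A11 (0.2981) in KYSE180 siTP63 cells and S100A11 (0.03621) in BRDT-OE cells.

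Scaling to equal library totals gave 2 up in KYSE180 siBRDT, 3 down in KYSE180 siTP63 and 0 up in BRDT-OE cells, and changed the sign of S100A8 (0.03271), S100A10 (0.3995), S100A11 (0.09841) and S100A10 (-0.03621) in these comparisons, S100A10 and S100A11 both for KYSE180 siTP63. It moved the median of all genes by 0.526 for KYSE180 siTP63 (17.63% of called genes down, against 52.07%), by -0.101 for TE6 siBRDT (66.5% against 53.84%), by -0.1242 for BRDT-OE (77.23% against 60.34%) and by 0.1025 for KYSE150 siTP63. The share was 40.28% against 52.08% for KYSE180 siBRDT and 38.33% against 50.26% between the TE6 knockdowns. Between lines the shifts were -0.1848 (72.08% against 55.34%) for siBRDT and, for siTP63, -0.5247 (76.48% against 48%), -0.4211 (78.11% against 39.56%) and 0.1054. Genes called there were 1452 down and 6784 up for KYSE180 siTP63 (main 3577 and 3292), 792 up for BRDT-OE (1343), 5806 and 1786 (3302 and 3577) for siTP63 in TE6 minus KYSE180 and 3737 and 1047 (1607 and 2455) in KYSE150 minus KYSE180. Equal upper quartiles moved the median by 0.1003 in TE6 siBRDT cells (41.43% down) and by 0.1037 between lines (38.54%), with S100A14 at 0.0386 and S100A16 at 0.01074. edgeR moved KYSE150 minus KYSE180 by -0.1119 (49.81%).

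Without a filter, 2 members rose in KYSE180 siBRDT cells and 1 differed upward between KYSE150 and TE6, and 18 genes were called down and 27 up in KYSE150 siTP63 cells. Without the fold limit 2 rose in KYSE180 siBRDT cells, and all genes called were 4044 down and 3893 up there (main 2143 and 1972) and 3195 and 3326 in BRDT-OE cells (2043 and 1343). edgeR and DESeq2 each gave 3 upward differences between KYSE150 and KYSE180, and DESeq2 gave 2 downward between KYSE150 and TE6 and 1 down and 1 up in KYSE150 siTP63 cells.

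Samples of the same replicate number did not deviate together. Correlations were -0.703 in the KYSE150 siTP63 comparison and -0.084 to 0.178 in the others. In KYSE150 siTP63 cells, deviations therefore went with those of the siCont library of the other number. The replicate block gave 1 member up in KYSE150 siTP63 cells, with 48 genes down and 89 up, and lost 4 calls of members elsewhere. Between lines it gave 983 and 815 genes (main 1762 and 1422) for siBRDT and 835 and 992 (1398 and 1664) for KYSE150 minus TE6. With the length and GC trend also removed, 113 genes fell and 119 rose in KYSE150 siTP63 cells, against 433 and 293 without the block. The crossed pairing, chosen after seeing the data, gave 1774 genes down and 1626 up there, 1 member each.

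In comparisons with groups of 2 libraries, leaving out 1 library at a time left 1 in a group, so their calls are not counted. With 3 libraries per group it gave 3 to 4 down and 1 to 2 up for KYSE180 siBRDT, and 1 to 2 and 0 to 1 for BRDT-OE. Between lines it gave 0 and 2 to 3 for siBRDT, and for siTP63 0 and 2 to 3, 0 to 1 and 3 to 6, and 1 to 2 and 1 to 3. Values of uncalled members whose sign changed ranged from -0.3385 to 0.1175 (S100A8, KYSE180 siBRDT), -0.3459 to 0.09645 (S100A10) and -0.1012 to 0.1272 (S100P) for KYSE180 siTP63, -0.1371 to 0.5382 (S100A10), -0.02051 to 0.8246 (S100A14) and -0.3074 to 0.3817 (S100A16) for KYSE150 siTP63, and -0.03314 to 0.2403 (S100A10) and -0.1019 to 0.0876 (S100A11) for BRDT-OE. The cause of these changes was not tested. Depth limited S100A7, S100A8 in KYSE150 and S100P outside TE6.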
